A study of Mus musculus with 6 samples.

Results

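Lung FBs carrying transcripts of Adh7, Wif1, Lamc3 or Bmp7 were taken as 1 population and described in the 4 lung libraries of the study. Members were chosen by their measured counts. A barcode, the sequence tag of 1 droplet and taken as 1 cell, had to hold at least 2000 unique molecular identifiers (UMIs, each standing for 1 captured RNA molecule). It had no UMI of Ptprc, Pecam1, Epcam or Pi16, which mark immune cells, endothelial cells, epithelial cells and adventitial FBs, and it had at least 3 UMIs of Adh7, Wif1, Lamc3 and Bmp7 summed (the rule genes). 403 barcodes met this rule, of 18951 in the lung libraries and 33286 in the whole series. Of the lung barcodes, 13779 had enough UMIs and 12200 of these also lacked Ptprc, Pecam1 and Epcam. Members were set beside the 10012 remaining barcodes that passed the same gates and held at least 1 Pdgfra UMI; Pi16 was not used to choose these.

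All 4 libraries came from Pdgfra-GFP reporter mice, in which green fluorescent protein marks cells with an active Pdgfra locus. GFP+ cells were sorted from enzymatically digested lungs of 3 mice per group, taken 14 days after the last dose. In the single-dose experiment mice received PBS (50 ul) or bleomycin once by the oropharyngeal route, and the bleomycin dose was given as 2 U/kg in the treatment protocol and as 4 U/kg in the sample's own treatment field. In the repetitive experiment mice received PBS or bleomycin each week for 3 weeks (50 ul), with bleomycin at 1 U/kg for the first 2 doses and at 0.5 U/kg for the third. Bleomycin is a DNA-damaging drug used to induce lung fibrosis in mice. Each condition was 1 library of pooled mice, so no comparison here has a replicate check, no test was run, and all intervals are exact 95% intervals that cover counting error only. Cells that no longer expressed the reporter were outside the sort. The mice were males aged 10 to 14 weeks. Where 4 values follow each other, their order is single-dose PBS, single-dose bleomycin, repetitive PBS and repetitive bleomycin.

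Adh7 is an alcohol dehydrogenase that oxidizes retinol, the first step toward retinoic acid. Wif1 is a secreted inhibitor that binds Wnt ligands, Lamc3 is a laminin gamma chain of basement membranes, and Bmp7 is a ligand of the BMP pathway. Wnt, BMP, retinoid and Hedgehog signals pass between the epithelium of airways and alveoli and the mesenchyme beneath it, where FBs build the matrix. In the mouse genome (GRCm38) the protein-coding gene Adh7 lies at chr3:138198064-138232042, Wif1 at chr10:121034004-121100642, Lamc3 at chr2:31887281-31949083 and Bmp7 at chr2:172868012-172940321.

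The libraries held 7201081, 11869967, 64697147 and 68354458 UMIs. Members numbered 13, 16, 109 and 265, so the single-dose sets were small. Members had medians of 8439, 11950, 12270 and 15330 UMIs, against 7105, 11910, 10620 and 10010 in the remaining Pdgfra+ barcodes. Levels are given as CPM, the counts of a gene scaled to 1000000 UMIs summed over a set of barcodes, and 1 UMI in the member sums was worth 8.26, 4.58, 0.700 and 0.222 CPM. No doublet caller was run; 2, 2, 12 and 250 members exceeded 2 times their library's median UMI count. That median was 2478 UMIs in the repetitive bleomycin library, where 71.8% of the remaining Pdgfra+ barcodes also exceeded 2 times its value. The 2 libraries of the repetitive experiment shared 28 barcode sequences, and no member was among them.

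Wif1 was the rarest of the rule genes among the members of all 4 libraries, and Lamc3 the most frequent in both repetitive ones. At least 1 Adh7 UMI was found in 12, 10, 66 and 97 members, a Lamc3 UMI in 8, 8, 102 and 231, a Bmp7 UMI in 12, 5, 38 and 61 and a Wif1 UMI in 1, 4, 1 and 35. These values chose the members and are a description. Adh7 was the highest rule gene in 7 of 13 and 8 of 16 single-dose members, whereas Lamc3 was the highest in 61 of 109 members after repetitive PBS and 189 of 265 after repetitive bleomycin. Lamc3 was the only rule gene seen in 1, 2, 28 and 129 members, and at least 2 rule genes were seen together in 12, 8, 74 and 111. Because Wif1 was nearly absent in members after repetitive PBS and Lamc3 led both larger sets, the cells are called Lamc3/Adh7 FBs here. The name is a label for the set, since Adh7 and Lamc3 were seen together in 7, 5, 59 and 77 members. In the repetitive PBS library 14 of 17 Wif1-positive gated barcodes held Pi16 and were thus outside the rule.

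In CPM, Adh7 stood at 355, 160.3, 190.4 and 83.9 in members and 24.0, 5.99, 22.4 and 12.8 in the remaining Pdgfra+ barcodes. Lamc3 stood at 140.4, 68.7, 245 and 235 CPM in members and 10.3, 5.64, 11.9 and 18.6 CPM in the rest. Wif1 stood at 57.8, 45.8, 1.40 and 22.9 CPM in members, the last 2 values coming from 2 and 103 UMIs. Smoc2, a secreted calcium-binding matrix protein that was named with the population but not used in the rule, was at 223, 124, 213 and 114 CPM in members and 88.8, 68.7, 87.7 and 110.1 CPM in the rest. Smoc2 was carried by 84 of 265 members after repetitive bleomycin and was level with the rest there. Without the barcode holding the most of its UMIs in each library Smoc2 stood at 149, 64.1, 198 and 104 CPM in members, so that it stayed above the rest in the PBS libraries and not after single-dose bleomycin, where that barcode held 13 of 27 UMIs. Pdgfra was found in 12, 13, 105 and 243 members, at 537, 124, 516 and 411 CPM against 562, 344, 621 and 424 CPM in the rest, which had been required to carry it.

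**Figure D1:**
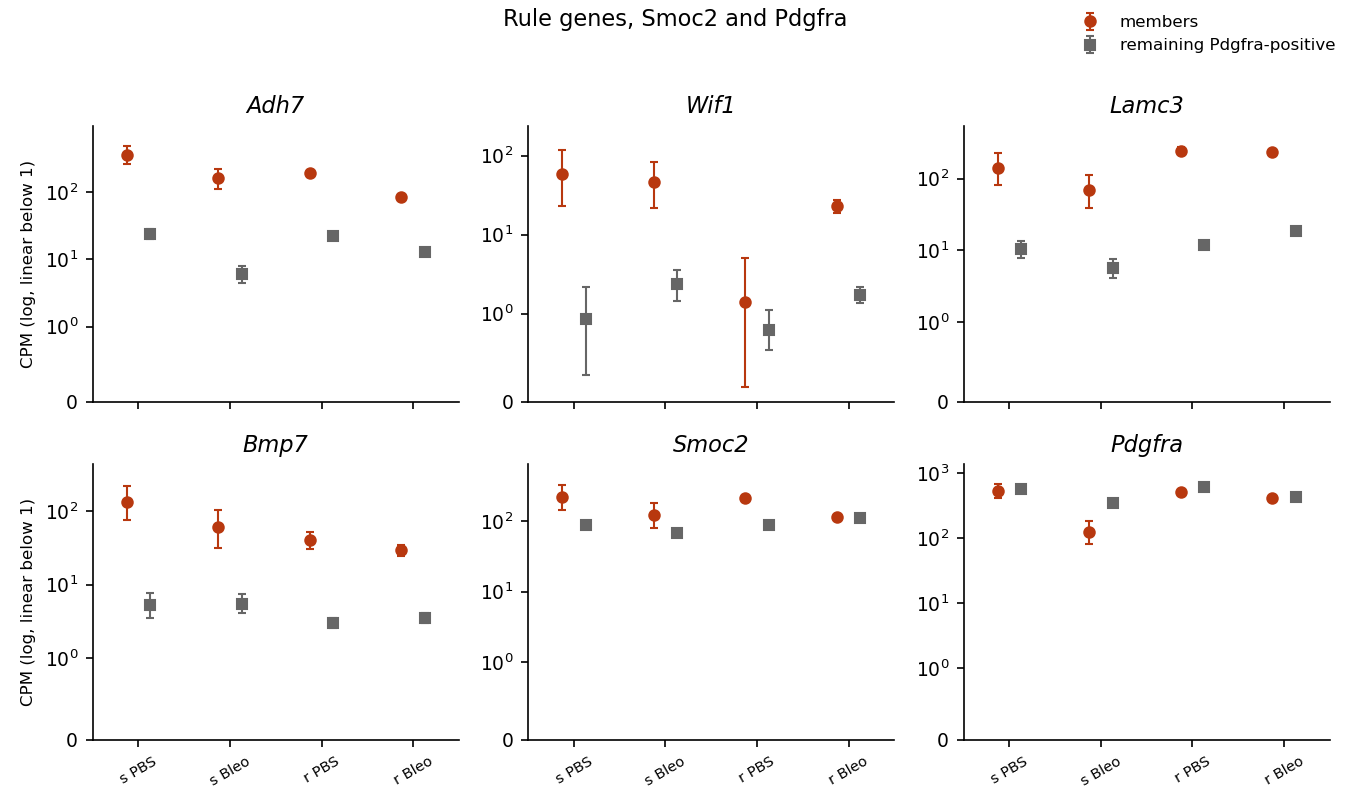
Level in CPM (log axis, linear below 1) of the 4 rule genes, Smoc2 and Pdgfra in members (circles) and remaining Pdgfra-positive barcodes (squares) of the single-dose (s) and repetitive (r) PBS and bleomycin libraries; bars are exact 95% Poisson intervals. Wif1 in members is at 1.40 CPM after repetitive PBS, and Smoc2 in members is level with the rest after repetitive bleomycin (114 against 110.1 CPM).

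The rule genes tended to share barcodes. Over all gated barcodes of the repetitive PBS library, Lamc3 was found in 44.5% of 409 Adh7-positive barcodes and in 4.78% of the 4753 without Adh7, with median depths of 11860 and 10320 UMIs. In the repetitive bleomycin library the same shares were 38.9% of 401 and 12.5% of 4943, with median depths of 10980 and 8003 UMIs. Wif1 was found in 3.42% of Adh7-positive and 0.0631% of Adh7-zero barcodes after repetitive PBS, and in 9.48% and 0.951% after repetitive bleomycin. Lamc3 in barcodes without Adh7 was therefore more common after repetitive bleomycin than after repetitive PBS.

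Lamc3/Adh7 FBs made up a larger share of members plus remaining Pdgfra+ barcodes after repetitive bleomycin than in the other libraries. The share was 1.70% (13 of 766, interval 0.907 to 2.89%) after single-dose PBS and 2.40% (16 of 668, 1.38 to 3.86%) after single-dose bleomycin. It was 2.25% (109 of 4856, 1.85 to 2.70%) after repetitive PBS and 6.42% (265 of 4125, 5.70 to 7.22%) after repetitive bleomycin. The 2 single-dose intervals overlapped, and the 2 repetitive intervals did not. With only Pdgfra+ barcodes counted, members included, the shares were 1.57, 1.95, 2.16 and 5.92%, an alternative chosen after seeing the data. Without the Pi16 gate the shares were 3.91, 3.89, 5.64 and 8.95%, so the repetitive pair lay closer together. The intervals of that pair were then 5.01 to 6.33% and 8.09 to 9.86%. Members inside the leading cluster described further on made up 1.34% (1.03 to 1.70%) after repetitive PBS and 1.479% (1.13 to 1.90%) after repetitive bleomycin, with overlapping intervals. Members outside it made up 0.906% (0.659 to 1.21%) and 4.94% (4.30 to 5.65%). This division depended on the clustering. At a coarser resolution of 0.5 the cluster with most members, chosen anew and not necessarily the same one, held 37 of 109 and 118 of 265. Of the 265 members after repetitive bleomycin, 77 carried both Adh7 and Lamc3, and in 129 Lamc3 was the only rule gene. Since a rule with a fixed number of UMIs depends on depth, each barcode was also thinned at random to 2000 UMIs and called positive with 1 rule UMI. The shares were then 3.13, 2.98, 2.88 and 7.95%, again highest after repetitive bleomycin.

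By gene, the thinned data put most of that difference on Lamc3. Lamc3 was found in 1.71% of thinned barcodes (1.36 to 2.12%) after repetitive PBS and in 5.53% (4.86 to 6.27%) after repetitive bleomycin. Adh7 was found in 1.13% (0.854 to 1.47%) and 1.99% (1.59 to 2.47%), Bmp7 in 0.495% and 0.706%, and Wif1 in 0.0412% and 0.560%. In the single-dose pair, thinned Adh7 was found in 1.44% and 0.450% and thinned Lamc3 in 1.70% and 1.35%, with overlapping intervals for both genes.

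Background RNA in droplets was gauged in barcodes that should not be FBs. Among Ptprc- or Pecam1-positive barcodes without Pdgfra, 0 of 47, 0 of 62, 0 of 260 and 0 of 359 held 3 rule UMIs, which in the repetitive libraries allowed shares of up to 1.15 and 0.836%. Those barcodes were shallower, with medians of 4244 and 4593 UMIs in the repetitive libraries against 12270 and 15330 in members, so fewer rule UMIs could be seen in them. Barcodes positive for Ptprc or Pecam1 regardless of Pdgfra held 3 rule UMIs in 1 of 104, 1 of 111, 25 of 617 and 19 of 671 cases. The gate on those genes thus also removed barcodes that carried both Pdgfra and rule genes in the repetitive libraries.

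**Figure D2:**
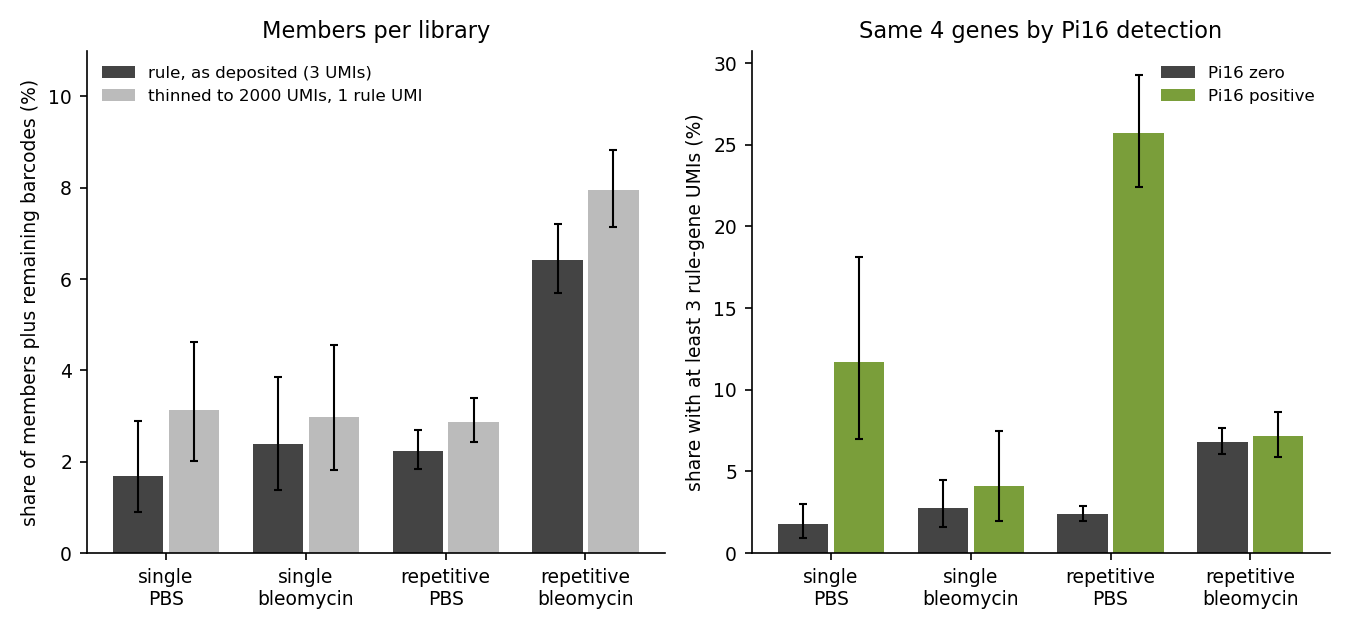
Left, members as a share (percent) of members plus remaining Pdgfra-positive barcodes as deposited and after thinning to 2000 UMIs, per library; right, share of all gated barcodes with at least 3 rule UMIs, split by whether Pi16 was detected; bars are exact 95% binomial intervals. The repetitive bleomycin library stands highest on the left, and Pi16-positive barcodes of the repetitive PBS library stand highest on the right (25.7%).

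Members just inside the threshold were compared with barcodes just outside it. In the repetitive PBS library, Rbp4 stood at 27.5, 194 and 518 CPM in Pi16-zero barcodes with 0, 1 and 2 rule UMIs and at 526, 797 and 704 CPM with 3, 4 and at least 5. Ptch1 followed the same steps at 72.8, 118 and 218 CPM outside and 349, 316 and 364 CPM inside. Npnt, an alveolar FB marker, mostly fell along them, at 1968, 1713 and 1269 CPM outside and 1409, 1037 and 974 CPM inside. Its steps after repetitive bleomycin were 1267, 1320 and 1299 CPM outside and 1454, 1261 and 991 CPM inside. After repetitive bleomycin the steps of Rbp4 were 40.5, 77.3 and 114 CPM outside and 131, 205 and 265 CPM inside. Rbp4 was thus close between 2 and 3 rule UMIs in both libraries. Aqp1 was at 1.28, 3.04 and 7.74 CPM outside and 2.61, 0 and 130 CPM inside after repetitive PBS, so that nearly all of it came from members with at least 5 rule UMIs. The share of barcodes in the leading cluster, described further on, was 0.768, 8.64 and 23.7% outside and 45.5, 36.8 and 75.4% inside after repetitive PBS. After repetitive bleomycin it was 0.170, 0 and 3.47% outside and 9.41, 7.32 and 35.97% inside.

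Genes that the rule did not use were ranked by the log2 ratio of members to the remaining Pdgfra+ barcodes, taken within each library after adding 5 CPM to both. A gene counted as called when it was past 2-fold the same way in all 4 libraries. Of 8249 genes with a mean of at least 10 CPM, 13 (0.158%) were called higher and 3 (0.0364%) lower in members. The median over all tested genes was -0.05, 0.05, 0.01 and 0.03 by library. Members were picked from the same barcodes in which these genes were measured, so the counts describe the set and test nothing. Without the single-dose bleomycin library 23 genes were higher, and without any 1 of the libraries 4 to 15 were lower. Centred on the median gene, 8 were higher and 4 lower, and by the mean CPM per barcode 14 were higher and 8 lower.

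Rbp4, the carrier protein of retinol, was the most abundant of the 13 after single-dose PBS. It stood at 686, 302, 673 and 218 CPM in members and 112, 47.3, 93.9 and 71.6 CPM in the rest, and was found in 11, 9, 92 and 138 members. After repetitive PBS this was 673 CPM (95% interval 631 to 717) against 93.9 CPM (91.3 to 96.5). Rbp4 was higher in members in every library, with log2 ratios of 2.56, 2.55, 2.78 and 1.54, the smallest after repetitive bleomycin. Rbp4 lies at chr19:38116620-38125321.

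Aqp1, a water channel known from endothelium and red cells, was at 355, 137, 72.1 and 70.8 CPM in members and 21.5, 30.9, 16.7 and 22.5 CPM in the rest. It was found in only 4, 7, 24 and 68 members. Its log2 ratios were 3.76, 1.99, 1.83 and 1.46, so the difference was widest after single-dose PBS. The listed endothelial markers, Aqp1 not among them, summed to 8.26, 41.2, 1.40 and 3.33 CPM in the same members.

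Foxl1 and Mecom, both transcription factors, were called. Foxl1, a forkhead factor that marks Hedgehog-responsive mesenchyme under the gut epithelium, was at 74.3, 41.2, 26.6 and 18.2 CPM in members against 4.87, 5.99, 2.36 and 5.53 CPM. After repetitive bleomycin this was 18.2 CPM (95% interval 14.5 to 22.6) against 5.53 CPM (4.86 to 6.28). Mecom, a zinc finger factor, was at 57.8, 36.6, 335 and 304 CPM against 25.5, 14.8, 137 and 146 CPM. Foxl1 was scarce in the rest of every library, whereas Mecom was widespread and only about 2-fold higher in members.

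Smoc1 and Dkk2, both secreted inhibitors, were called. Smoc1, a relative of Smoc2 that restrains BMP signaling, stood at 33.0, 13.7, 48.3 and 28.0 CPM against 6.18, 0.939, 5.97 and 6.51 CPM. Dkk2, which binds the Wnt co-receptors, stood at 8.26, 64.1, 13.3 and 97.0 CPM against 0.374, 22.5, 4.01 and 45.0 CPM. The single-dose PBS value of Dkk2 rested on 1 UMI, and its levels were higher after bleomycin in members and in the rest alike.

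The other 7 called genes were Gpld1, Rgs7bp, Sv2c, Magi1, Csmd1, Fetub and Ngb. Csmd1, a large membrane protein, was at 16.5, 45.8, 117 and 1702 CPM in members against 0.749, 14.2, 27.2 and 765 CPM, so its level differed more between the libraries than between members and the rest. Rgs7bp, which anchors regulators of G protein signaling, was at 57.8, 18.3, 118 and 131 CPM against 8.24, 6.34, 24.8 and 42.4 CPM. Fetub, a secreted protease inhibitor, was at 66.1, 27.5, 42.0 and 26.6 CPM against 8.80, 8.45, 7.85 and 10.6 CPM. The synaptic vesicle gene Sv2c was at 24.8, 22.9, 55.3 and 69.3 CPM against 1.87, 3.64, 9.50 and 22.0 CPM. Several of these calls were narrow in the small single-dose sets. When the barcode holding most of a gene's UMIs was left out of each member sum, 3 of the 13 (Rbp4, Foxl1 and Csmd1) stayed past 2-fold in all 4 libraries. Csmd1 then rested on 1 UMI after single-dose PBS (8.26 CPM).

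The 3 genes called lower were Ly6c1, Ebf1 and Prss23. Ly6c1, a surface antigen of adventitial FBs and some leukocytes, was at 0, 13.7, 3.50 and 3.55 CPM in members against 29.8, 54.2, 19.9 and 47.9 CPM. Ebf1, a transcription factor of mesenchyme and B cells, was at 0, 4.58, 22.4 and 21.1 CPM against 29.4, 52.0, 55.8 and 125 CPM. Prss23, a secreted serine protease, was at 0, 4.58, 5.60 and 9.55 CPM against 18.5, 62.9, 17.9 and 45.0 CPM. None of the 3 held in all 4 libraries when only Pi16-zero barcodes were kept in the rest, whereas 12 of the 13 higher genes did.

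**Figure D3:**
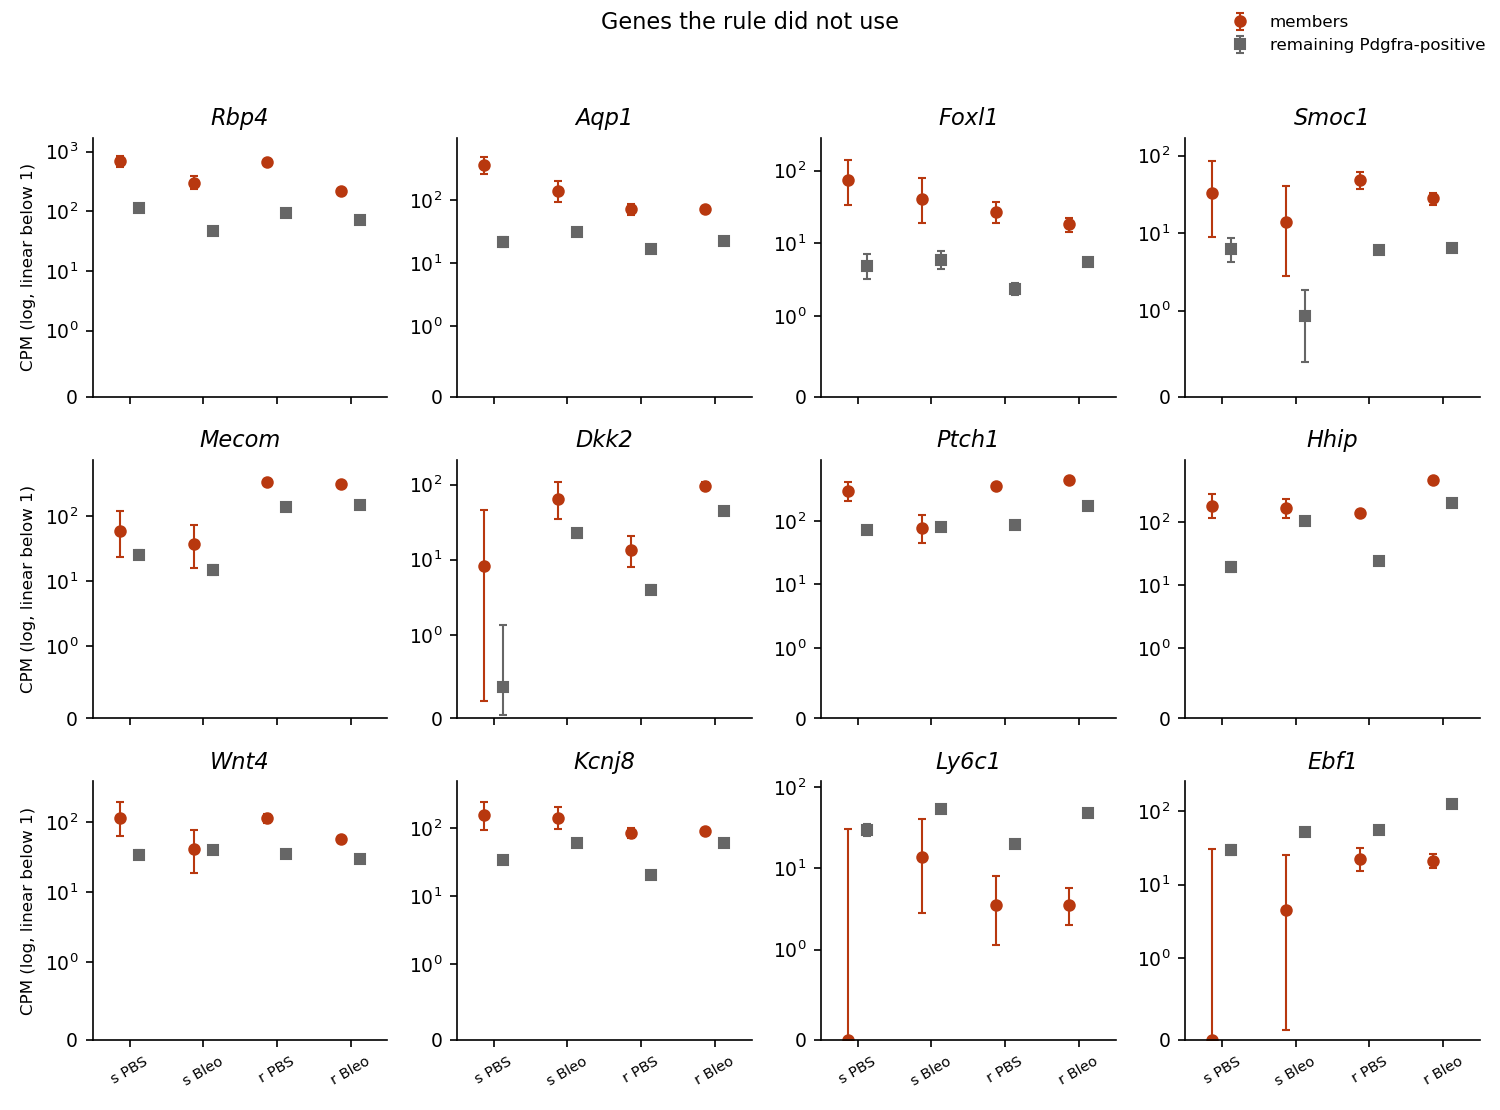
Level in CPM (log axis, linear below 1) of 12 genes the rule did not use, in members (circles) and remaining Pdgfra-positive barcodes (squares) of the single-dose (s) and repetitive (r) libraries; bars are exact 95% Poisson intervals. Rbp4, Aqp1, Foxl1, Smoc1, Mecom and Dkk2 lie above the rest in all 4 libraries, Ly6c1 and Ebf1 below, and Ptch1 and Wnt4 lie level with the rest after single-dose bleomycin.

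Because the single-dose sets were small, calls were also made from the 2 repetitive libraries alone, a choice made after seeing the data. There, 33 genes (0.400%) were higher and 6 (0.0727%) lower in members. Of the 33, 20 stayed past 2-fold in both libraries without the barcode holding most of each gene's UMIs, and 30 held against Pi16-zero barcodes alone. 28 of the 33 had a larger ratio after PBS than after bleomycin. Within the repetitive bleomycin library, 27 of the 33 had a larger ratio when only members of the leading cluster, described further on, were taken. 20 were over 0 in both single-dose libraries. The 33 genes had not been left out of the clustering, so larger ratios in that cluster were likely from the outset. The shares of all tested genes that met these conditions were not counted, so the counts describe the 33 alone.

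Hedgehog pathway genes were among these. Ptch1, the Hedgehog receptor and a standard target of the pathway, was at 289, 77.8, 351 and 441 CPM in members against 71.7, 78.5, 85.2 and 174 CPM. Hhip, a membrane protein that binds Hedgehog ligands and is itself a target, was at 182, 165, 137 and 469 CPM against 19.5, 102, 23.8 and 198 CPM. Gli1, the transcription factor induced by the pathway, was at 24.8, 27.5, 21.0 and 19.3 CPM against 10.9, 8.92, 5.38 and 14.2 CPM, a difference past 2-fold in 2 libraries. After single-dose bleomycin the members' Ptch1 was level with the rest. Over the Hedgehog list, 2 of 11 tested genes were called in both repetitive libraries, and the list's median log2 ratio was 0.19 against 0.02 for all tested genes. Scube2, which helps release the ligand, had the list's lowest median, at -0.43.

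Among Wnt pathway genes the members had more Wnt4 and less Wnt2. Wnt4 was at 116, 41.2, 114 and 57.3 CPM in members against 34.3, 40.3, 34.9 and 29.4 CPM, higher in every library but single-dose bleomycin. Wnt2, a ligand of alveolar FBs, was at 41.3, 36.6, 49.0 and 37.8 CPM against 163, 88.8, 134 and 67.3 CPM. No ligand of 4 tested and 1 antagonist of 5 (Dkk2) was called. Of the receptors, 0 of 10 were called, with Fzd2 highest (median log2 ratio 0.67) and Lrp5 lowest (-0.55). Axin2, the usual readout of Wnt signaling, was at 41.3, 45.8, 42.7 and 46.4 CPM in members and 33.5, 29.7, 39.0 and 38.4 CPM in the rest, within 2-fold in all 4 libraries. None of 6 Wnt targets was called, and their median was 0.19.

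Of the BMP antagonists, 1 of 11 was called (Smoc1), and the list's median was 0. Chrdl1, another secreted BMP antagonist, was the lowest at 8.26, 0, 67.9 and 18.0 CPM in members against 91.2, 18.8, 138 and 43.4 CPM. Bmp3 and Bmp2 were the lowest and highest ligands, but 168 of the 189 Bmp2 UMIs in repetitive bleomycin members came from 1 barcode. None of 6 ligands and none of 10 receptors and targets was called. Id2, a target of BMP signaling, was the lowest of these at 0, 18.3, 35.0 and 17.8 CPM against 38.0, 94.3, 16.8 and 47.3 CPM, lower in 3 libraries and higher after repetitive PBS.

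Of the retinoid genes that the rule did not use, 1 of 11 was called (Rbp4), and the list's median was 0.01. Lrat, which esterifies retinol for storage in lipid droplets, was the lowest at 289, 13.7, 118 and 69.7 CPM in members against 228, 58.4, 223 and 103 CPM. No other gene of the 11 was past 2-fold the same way in all 4 libraries.

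Basement membrane genes were mixed. Besides Lamc3, none of 18 tested was called, and the median was 0.11. Lama2, the laminin alpha chain of muscle and mesenchyme, was the highest at 149, 114, 1103 and 1162 CPM against 63.1, 84.1, 569 and 734 CPM. Agrn, a heparan sulfate proteoglycan, was the lowest at 0, 9.16, 18.9 and 30.4 CPM against 14.0, 27.7, 17.4 and 27.7 CPM. None of 15 collagens and none of 34 other matrix genes was called, with medians of 0.15 and -0.03. Ltbp2, which binds microfibrils, was the highest of the matrix genes, at 82.6, 609, 81.2 and 738 CPM against 6.37, 415, 8.63 and 501 CPM. Its log2 ratios were 2.95, 0.55, 2.66 and 0.55, past 2-fold in the PBS libraries and under 2-fold in the bleomycin libraries.

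Of the remaining pathway lists, 0 of 14 FGF and HGF genes were called, and Fgfr2 was the highest at 49.6, 36.6, 115 and 127 CPM against 8.05, 12.7, 69.5 and 82.2 CPM. Among 33 mesenchymal transcription factors, Ebf1 was called lower and none was called higher. Runx2, a factor of bone and of activated mesenchyme, was the highest of this list at 33.0, 18.3, 18.9 and 75.9 CPM against 0.936, 10.4, 4.60 and 36.2 CPM. Of 19 chemokines and cytokines none was called in all 4 libraries, with a median of -0.84. Cxcl14 was the highest at 3478, 1177, 1276 and 858 CPM against 1242, 1480, 647 and 557 CPM and Saa3 the lowest at 8.26, 64.1, 1.40 and 64.8 CPM against 2.43, 464, 9.92 and 328 CPM. Of 17 dissociation and AP-1 genes, 9 p53 targets and 22 adhesion and receptor genes none was called, with medians of -0.03, 0.17 and 0.14.

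Members were set beside markers of other FBs. Of 12 alveolar LipoFB markers none was called, and the median was -0.38. Tcf21, a transcription factor of alveolar FBs, was at 529, 197, 327 and 222 CPM in members against 623, 212, 458 and 187 CPM. Npnt was at 1107, 371, 1102 and 1161 CPM against 1154, 662, 1772 and 1071 CPM, and the esterase Ces1d was the lowest of the list at 281, 160.3, 231 and 320.4 CPM against 617, 478, 643 and 485 CPM. The list summed to 10800, 2665, 9324 and 6713 CPM in members against 15140, 4662, 13230 and 6153 CPM in the rest. Alveolar markers were therefore abundant in members, but their sum was lower than in the rest in every library but repetitive bleomycin. Ces1d and Wnt2 were lower in all 4 libraries. Of the 8 peribronchial FB markers 3 were tested, and Hhip was called in both repetitive libraries. That list summed to 281, 229, 251 and 638 CPM in members against 88.8, 207.5, 71.6 and 320.0 CPM in the rest, with Hhip the largest part of each member sum. Of 9 adventitial MatrixFB markers Ly6c1 alone was called, in the lower direction, and the median was -0.19. Members had been chosen without the adventitial marker Pi16 and the rest had not, so a lower adventitial level was in part set by the rule. The Ly6c1 call did not hold in all 4 libraries against Pi16-zero barcodes. The potassium channel Kcnj8, on the pericyte list, was at 157, 142, 85.4 and 90.2 CPM against 34.1, 61.3, 20.8 and 60.9 CPM, while its partner on the tested list, Pdgfrb, had a median ratio of 0.14. Among 8 pan-FB markers none was called, with Lum the lowest (median -1.24). The list summed to 27270, 48890, 26870 and 42780 CPM in members and 33180, 68650, 24500 and 48870 CPM in the rest. It was thus lower in members of every library but repetitive PBS.

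Markers of cells outside the FB lineage were summed over 8 genes per list. The endothelial sums given above stood beside 11.4, 18.0, 4.37 and 4.69 CPM in the rest, with Pecam1 at 0 by the rule and Kdr and Tie1 at 0 in all 4 member sets. Immune markers summed to 74.4, 87.0, 8.40 and 77.9 CPM in members and 158, 105, 17.9 and 1049 CPM in the rest. The last value was mainly the immunoglobulin chain Igkc, at 948 CPM. Epithelial markers summed to 785, 142, 116 and 120 CPM in members and 787, 91.6, 99.9 and 102 CPM in the rest, and the club cell gene Scgb1a1 was found in all 13 single-dose PBS members. The Schwann cell genes Sox10, Gfra3 and Kcna1 were at 0 in every member set. The part of these transcripts in the comparisons was not tested.

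The barcodes of each library were clustered without the rule genes, Smoc2, Pi16 and mitochondrial genes. In each library 1 cluster held more members than any other. Its leading genes included Rbp4, Aqp1, Adh7, Lamc3, Smoc2, Tspan8 and Ptch1 in at least 3 of the libraries. The cluster was picked by its members, which Adh7 and Lamc3 had helped to choose, so their place on this list was likely from the outset. This cluster held 10 of 13 members (76.9%, interval 46.2 to 94.96%), 5 of 16 (31.3%, 11.0 to 58.7%), 65 of 109 (59.6%, 49.8 to 68.9%) and 61 of 265 (23.0%, 18.1 to 28.6%). The cluster itself was small, at 33, 35, 274 and 136 barcodes, or 3.78, 4.27, 5.31 and 2.55% of those clustered. Members made up 30.3, 14.3, 23.7 and 44.9% of its barcodes, a minority in every library. After single-dose bleomycin 16 of its 35 barcodes held no rule UMI. Lamc3 and Tspan8 were not among its leading genes there, whereas Nnat and Scgb1a1 were. Members thus gathered in 1 small cluster after PBS and were spread over several after bleomycin. This order did not hold at resolution 0.5, where the cluster with most members was chosen anew. The 4 shares were then 61.5, 62.5, 33.9 and 44.5%. After repetitive bleomycin, a cluster led by Col28a1, Sema3d and Col4a6 held 51 members and a cluster led by Nnat and Adra1a held 42.

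The share in the leading cluster differed by which rule genes a member carried. After repetitive bleomycin 52.6% of 97 Adh7-positive members were in the leading cluster, against 5.95% of 168 Adh7-zero members. After repetitive PBS the shares were 68.2% of 66 and 46.5% of 43. Of members in which Lamc3 was the only rule gene, 14 of 28 after PBS and 6 of 129 after bleomycin were in the leading cluster. Of members with 3 or more rule genes, 20 of 23 and 29 of 35 were in it. Of the 35 Wif1-positive members after repetitive bleomycin, 17 were in it. Smoc2 stood at 415 CPM in members inside and 44.0 CPM in members outside the leading cluster of that library, and at 325 and 92.7 CPM after repetitive PBS.

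**Figure D4:**
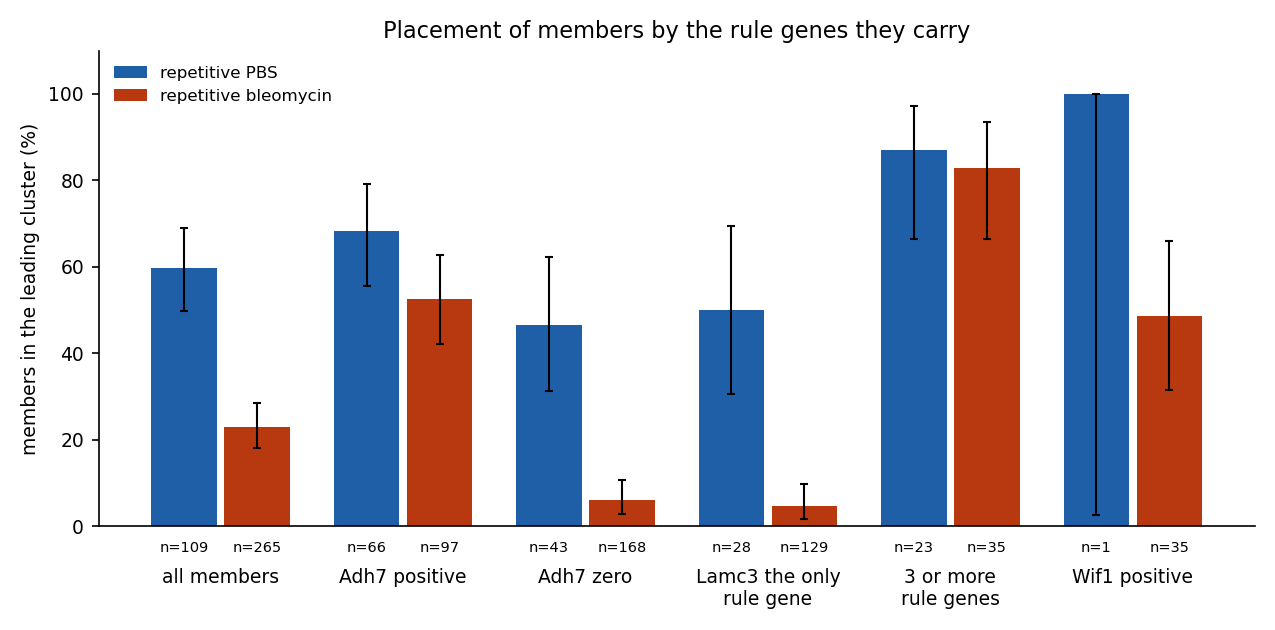
Share of members (percent) that fell in the leading cluster of the repetitive PBS and repetitive bleomycin libraries, for all members and by the rule genes they carried; n is the number of members and bars are exact 95% binomial intervals. After bleomycin, Adh7-zero members and members with Lamc3 as the only rule gene lie at 5.95% and 4.65%, and members with 3 or more rule genes at 82.9%.

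Within the repetitive members, 31 genes of 8327 tested were past 2-fold higher and 38 past 2-fold lower in Adh7-positive than in Adh7-zero members of both libraries. Aqp1 was at 115 against 10.3 CPM after PBS and 172 against 19.8 CPM after bleomycin. Smoc2 was at 315 against 65.1 CPM after PBS and 253 against 43.2 CPM after bleomycin, and the Notch ligand Dner at 21.3 against 1.71 CPM after PBS and 23.1 against 1.00 CPM after bleomycin. The alarmin Il33 was at 43.8 against 8.57 CPM after PBS and 42.2 against 8.70 CPM after bleomycin. Aqp1 in the members was thus carried mainly by the Adh7-positive ones.

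In the other direction, the matrix glycoprotein Tnc was at 17.7 against 105 CPM after PBS and 200.5 against 1008 CPM after bleomycin. The atypical cadherin Fat3 was at 27.2 against 152 CPM after PBS and 30.3 against 151 CPM after bleomycin, and Tagln, an actin-binding gene of contractile cells, at 4.73 against 37.7 CPM after PBS and 75.8 against 340.4 CPM after bleomycin. Bmper, which binds BMPs, was at 14.2 against 54.9 CPM after PBS and 28.4 against 148 CPM after bleomycin, and Frmpd4 at 5.92 against 29.1 CPM after PBS and 0 against 15.4 CPM after bleomycin. Fn1, the fibronectin gene, was at 186 against 992 CPM after PBS and 1494 against 3650 CPM after bleomycin. Adh7-zero members, many of them selected by Lamc3 alone, thus had more Tnc, Tagln and Fn1 in both libraries. The 10 fibrosis-associated MyoFB markers summed to 1164 CPM in Adh7-positive and 3619 CPM in Adh7-zero members after repetitive bleomycin.

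The Pi16 gate removed many barcodes with the same genes, a comparison added after seeing the data. Among gated Pi16-positive barcodes, 17 of 145 (11.7%), 10 of 242 (4.13%), 166 of 645 (25.7%, interval 22.4 to 29.3%) and 105 of 1463 (7.18%) held at least 3 rule UMIs. Among Pi16-zero barcodes the shares were 1.78, 2.77, 2.41 and 6.83%. After repetitive PBS, rule genes were therefore far more common in barcodes with Pi16 than in those without, at median depths of 9945 and 10510 UMIs. After thinning to 2000 UMIs the shares with 1 rule UMI in that library were 28.1 and 3.01%. After repetitive bleomycin the shares with and without Pi16 had overlapping intervals, and their median depths were 5337 and 9509 UMIs.

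In the leading cluster 42.4, 45.7, 50.0 and 44.9% of barcodes were Pi16-positive, and 72.3% of the 166 and 50.5% of the 105 Pi16-positive barcodes with 3 rule UMIs of the repetitive libraries fell in it. Adh7 in those Pi16-positive barcodes was at 733, 173, 537 and 242 CPM, above the members of every library but only narrowly after single-dose bleomycin, and Aqp1 was at 670.4, 286, 423 and 310.5 CPM. Smoc2 was at 740.5, 658, 634 and 483 CPM. In other Pi16-positive barcodes Adh7 was at 19.0, 5.05, 22.4 and 10.5 CPM and Aqp1 at 5.06, 33.7, 0.716 and 9.27 CPM. Pi16-positive barcodes were split by their rule UMIs, so the difference in Adh7, a rule gene, was set by that choice. Npnt was lower in the Pi16-positive barcodes with rule genes than in members, at 226, 153, 213 and 393 CPM against 1107, 371, 1102 and 1161 CPM. Dcn, the decorin gene, was at 4272, 3109, 7811 and 5250 CPM in them and 1123, 1511, 2869 and 1718 CPM in members.

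Genes that marked the members were also looked up among Pi16-positive barcodes. Of the 33 genes called in both repetitive libraries, 18 were also past 2-fold higher in Pi16-positive barcodes with 3 rule UMIs than in other Pi16-positive barcodes of both libraries, where 50 of 8249 genes (0.606%) were. 32 of the 33 were over 0 in both, the exception being Tmem163 after PBS. The share of all tested genes over 0 in both was not counted, so this number has no background beside it. The members and these Pi16-positive barcodes were chosen by the same rule genes in the same libraries, so an overlap was likely from the outset. Such barcodes with Pdgfra were part of the remaining barcodes to which members were compared. Few Wif1-positive barcodes of the repetitive PBS library passed the gate. Of 17 Wif1-positive gated barcodes after repetitive PBS, 14 held Pi16 and 1 was a member, while 14 held Adh7, 15 Smoc2 and 15 Aqp1. Of 85 after repetitive bleomycin, 24 held Pi16 and 35 were members.

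Bleomycin was set against PBS within the members of each experiment. Of 8271 genes, 188 (2.27%) were past 2-fold higher and 72 (0.871%) past 2-fold lower after bleomycin in both experiments. In the remaining Pdgfra+ barcodes 211 were higher and 78 lower, and 117 and 30 of the members' genes were among these. From the repetitive experiment alone 317 were higher and 135 lower in members. Members of the 2 conditions were not the same mix of barcodes, since a smaller share of those after bleomycin carried Adh7 or fell in the leading cluster. Changes within a cell type and a change in which cells met the rule cannot be told apart here.

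Matrix genes were among those higher. Col1a1, a fibrillar collagen gene, went from 1066 to 3398 CPM in the single-dose and from 875 to 2236 CPM in the repetitive experiment. Col3a1, another, went from 1421 to 4629 CPM in the single-dose and from 1454 to 4373 CPM in the repetitive experiment. The elastin gene Eln went from 909 to 6616 CPM in the single-dose and from 960.3 to 3120 CPM in the repetitive experiment. All 3 were also past 2-fold higher in the rest. Fn1 went from 281 to 3869 CPM in the single-dose and from 515 to 2924 CPM in the repetitive experiment. Of 15 collagens 7 were past 2-fold higher, against 9 in the rest, and of 33 other matrix genes 6 were higher and 3 lower, against 12 and 1 in the rest. Without the top barcodes 6 of the 7 collagens and 5 of the 6 other matrix genes stayed higher and 1 of the 3 stayed lower. In members of the leading cluster 1 of the 7 collagens and 3 of the 6 other matrix genes were past 2-fold higher. In the single-dose experiment these were only 10 PBS and 5 bleomycin members, with 1 UMI worth 11.0 and 19.1 CPM. A ratio under 2-fold in the leading cluster, here and below, thus cannot show that a change was absent. A single-dose ratio past 2-fold there can in turn rest on 1 UMI. Log2 ratios of Col1a1 were 1.67 and 1.35 in members and 1.86 and 2.01 in the rest. Those of Fn1 were 3.76 and 2.49 in members and 3.11 and 1.93 in the rest. In members of the leading cluster the log2 ratios were 0.17 and 0.85 for Col1a1, 0.61 and 1.28 for Col3a1, 2.55 and 1.20 for Eln and 1.35 and -0.28 for Fn1. There, only Eln of these 4 was past 2-fold in both experiments, and Fn1 was lower after repetitive bleomycin.

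Of the 10 fibrosis MyoFB markers 8 were higher in members, and 7 in the rest. Without the barcode holding the most UMIs of each gene 6 of the 8 stayed past 2-fold, Postn and Grem1 being lost, and 4 were past 2-fold in members of the leading cluster (Spp1, Tnc, Ltbp2 and Fst). Ltbp2 went from 82.6 to 609 CPM in the single-dose and from 81.2 to 738 CPM in the repetitive experiment, and was found in 13 of 16 and 235 of 265 bleomycin members. Tnc went from 0 to 719 CPM in the single-dose and from 53.2 to 736 CPM in the repetitive experiment. Of the 157 Tnc UMIs after single-dose bleomycin 105 came from 1 barcode, and Tnc stood at 238 CPM without it. Spp1, the osteopontin gene, went from 0 to 3883 CPM in the single-dose and from 0 to 691 CPM in the repetitive experiment, but 767 of the 848 UMIs in the single-dose library came from 1 of the 16 members. After repetitive bleomycin Spp1 was found in 68 of 265 members. Cthrc1, a collagen-associated marker of scar FBs, was at 0, 50.4, 0 and 27.5 CPM and was found in 3 and 17 bleomycin members. After single-dose bleomycin 9 of its 11 UMIs came from 1 barcode. In the leading cluster its log2 ratios were 0.00 (no UMI in either single-dose set) and 0.96, under 2-fold. All 9 Mki67, 18 Top2a and 42 Ube2c UMIs of the single-dose bleomycin members came from 1 barcode, and of the cycling list's 7 of 8 genes past 2-fold 0 stayed so without the top barcodes.

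Of the signaling lists, 1 of 5 Wnt ligands, 2 of 7 BMP ligands, 0 of 13 FGF and HGF genes and 0 of 11 Hedgehog genes were past 2-fold higher in both experiments. None of these was past 2-fold lower in both. Over all tested genes 2.27% were higher and 0.871% lower. The BMP ligand Bmp2 was called on 1 barcode in each bleomycin library, and 1 of 7 ligands (Bmp1) stayed past 2-fold without the top barcodes. Within the leading cluster 0 of the called BMP ligands and 0 of the called Wnt ligands were past 2-fold in both experiments. Of the Wnt antagonists 2 of 6 were higher, and neither was past 2-fold in both experiments within the leading cluster. Sfrp1, a secreted Wnt antagonist, went from 99.1 to 398 CPM in the single-dose and from 48.3 to 388 CPM in the repetitive experiment, and Igf1, an insulin-like growth factor, from 82.6 to 678 CPM in the single-dose and from 170.1 to 646 CPM in the repetitive experiment. Genes on no list with large ratios in both experiments included Tmem178, Inhba, Ildr2, Nnat, Scube1, Hp and P4ha3. In members of the leading cluster the log2 ratios of Sfrp1 were -0.36 and 2.08, below 0 in the single-dose experiment. Scube1 was at 0.00 and 1.40 there, Inhba at 3.11 and 0.65 and Hp at 2.90 and 0.57, each under 2-fold in 1 experiment. Nnat, a small membrane protein, went from 8.26 to 536 CPM in the single-dose and from 10.5 to 105 CPM in the repetitive experiment. P4ha3, a prolyl hydroxylase of collagen synthesis, was at 0, 96.2, 0.700 and 33.8 CPM and Inhba, a subunit of activin, at 0, 45.8, 3.50 and 61.7 CPM.

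Inmt and glutathione transferase genes were among those lower. Inmt, a methyltransferase of alveolar FBs, went from 6187 to 861 CPM in the single-dose and from 3456 to 1362 CPM in the repetitive experiment, the only one of 12 LipoFB markers past 2-fold lower in members in both experiments, against 6 in the rest. Gstm1, which conjugates glutathione, went from 1371 to 320.5 CPM in the single-dose and from 878 to 224 CPM in the repetitive experiment. Its relative Gsta3 went from 669 to 41.2 CPM in the single-dose and from 520 to 141 CPM in the repetitive experiment. Igfbp3, a carrier of insulin-like growth factors, went from 396 to 36.6 CPM in the single-dose and from 364 to 80.6 CPM in the repetitive experiment. The other genes on no list with the largest drops were Galnt15, Gria1, Tppp3, Rgcc, Lepr and Ppl. Of 17 dissociation and AP-1 genes 5 were lower, 4 of them also without the top barcodes and 0 within the leading cluster, among them Fos, from 2065 to 783 CPM in the single-dose and from 3073 to 1370 CPM in the repetitive experiment. In members of the leading cluster Gstm1, Rgcc, Galnt15, Tppp3 and Ppl were each under 2-fold in 1 experiment and Fos in both, with all ratios below 0.

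Adh7, which had chosen many of the members, and Rbp4 were lower after bleomycin. Adh7 went from 355 to 160.3 CPM in the single-dose and from 190.4 to 83.9 CPM in the repetitive experiment. Since Adh7 was a rule gene, its level was set in part by the choice of members. Rbp4 went from 686 to 302 CPM in the single-dose and from 673 to 218 CPM in the repetitive experiment. It was the 1 of 11 retinoid genes outside the rule past 2-fold lower in both experiments. In the rest the log2 ratios were -1.40 and -0.62 for Adh7 and -1.16 and -0.37 for Rbp4. Both genes were thus also past 2-fold lower in the rest in the single-dose experiment. In members of the leading cluster the log2 ratios of Adh7 were -0.16 and 0.06 and those of Rbp4 0.26 and -1.08, so the lower Adh7 was not seen there. The log2 ratios of Wif1 were -0.31 and 2.12, but all 7 Wif1 UMIs of the single-dose PBS members came from 1 barcode. Only 1 member carried Wif1 after repetitive PBS too, so leaving out the top barcode left no Wif1 in either PBS set. The ratios without it, 2.70 and 2.33, could therefore not be negative and give no direction. Lamc3 had log2 ratios of -0.98 and -0.06, and Aqp1 of -1.34 and -0.02. Without the barcode holding most of each gene's UMIs, 141 of the 188 higher and 55 of the 72 lower genes stayed past 2-fold in both experiments, and 167 of the 188 stayed so in the repetitive one.

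**Figure D5:**
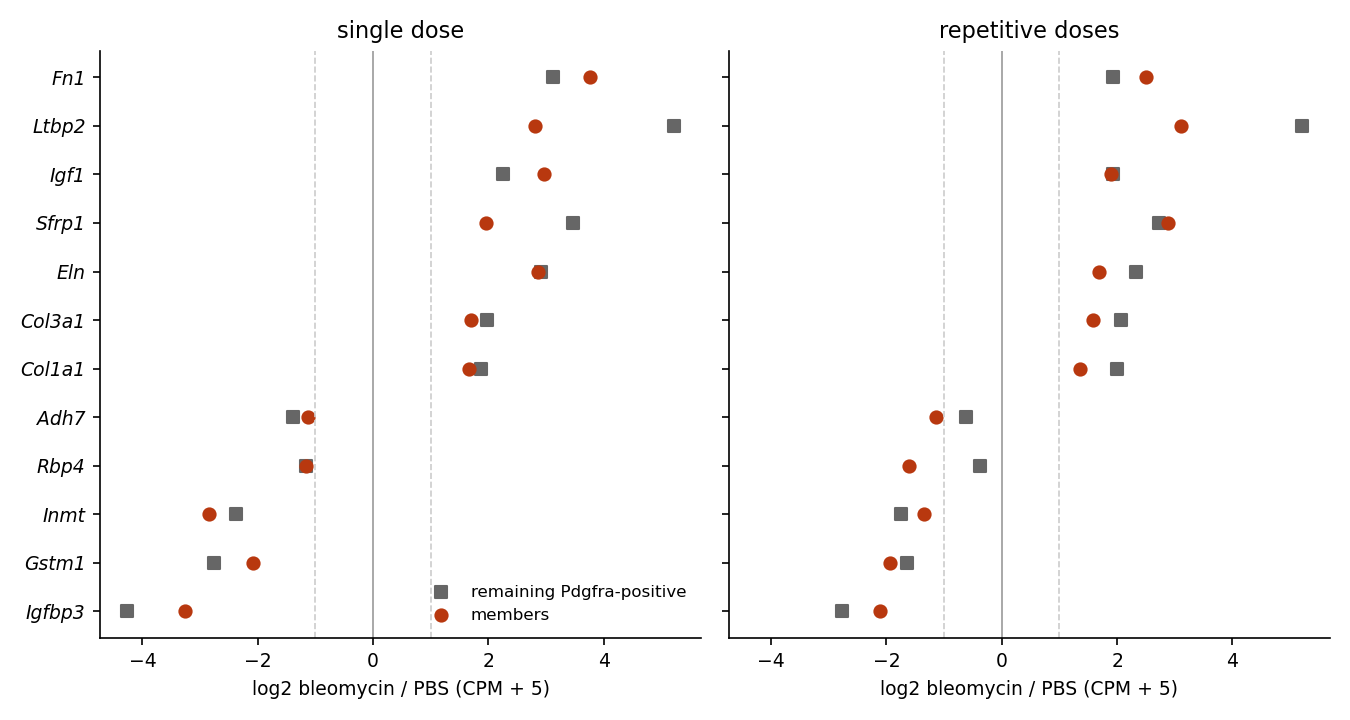
Log2 ratio of bleomycin over PBS, on CPM plus 5, for 12 named genes in members (circles) and remaining Pdgfra-positive barcodes (squares) of the single-dose (left) and repetitive (right) experiments; dashed lines mark 2-fold. Fn1, Ltbp2, Igf1, Sfrp1, Eln, Col3a1 and Col1a1 lie above 2-fold and Inmt, Gstm1 and Igfbp3 below it in both sets and experiments. Rbp4 and Adh7 are past 2-fold lower in both experiments in members, and in the single-dose experiment only in the rest.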

How the data were processed

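Single-cell RNA-seq counts were used from 4 lung libraries of sorted Pdgfra-GFP+ cells; the 2 organoid libraries of the series were not used. The authors aligned reads to GRCm38 with Gencode M17 annotation in Cell Ranger v3.0.1 and deposited raw UMI counts per gene and barcode. No cell annotation by the authors was used, and the members are a set defined by the rule alone. The members and gene lists were chosen with earlier results of these data known.

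UMIs were summed over members and over remaining Pdgfra+ barcodes of each library and expressed as CPM of all UMIs in that sum. Ratios were taken on log2(CPM + 5) over genes present in all 4 tables (20490) with a mean of at least 10 CPM, which understates the ratios of low genes. A gene was called at 2-fold. With 1 library per condition there was no test, and members over the rest is a description. Poisson and Clopper-Pearson intervals are exact at 95%, and the limit for a count of 0 was 3 counts. Barcodes over 3 median absolute deviations in mitochondrial share were kept and left out in an alternative, and no doublet caller was run.

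Clustering used scanpy 1.11.5 with igraph 0.11.9 within each library (2000 variable genes, 30 components, 20 neighbours, resolution 1), on gated barcodes of either Pi16 state, without the rule genes, Smoc2, Pi16 and mitochondrial genes. The tables were read with pandas 2.3.3 and intervals taken from scipy 1.17.1 (Python 3.11.15; arrays in numpy 2.4.6), and the ratio and interval code was tested on simulated data. Gene positions come from RefSeq on GRCm38. Named genes were the rule genes and Smoc2, the highest and lowest of each list by median ratio, list genes and up to 20 higher and 10 lower other genes called in all 4 libraries, and, for bleomycin over PBS, list genes past 2-fold in both experiments and the 8 highest and 8 lowest others; other genes named, among them Tcf21, Npnt, Axin2, Gli1 and the Pi16 comparison's genes, were chosen after their values were seen. A planned comparison of Adh7-positive with Wif1-positive members was replaced by Adh7-positive against Adh7-zero members, because 1 member after repetitive PBS carried Wif1. Some genes that this naming rule covers are not reported here.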

Additional observations from a re-analysis of the deposited data

Results flagged for a closer look

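Rule genes were also seen in barcodes outside the gates. Of barcodes with at least 2000 UMIs and a Ptprc or Pecam1 UMI, 25 of 617 (4.05%, interval 2.64 to 5.92%) after repetitive PBS and 19 of 671 (2.83%, 1.71 to 4.39%) after repetitive bleomycin held at least 3 rule UMIs. All 25 and all 19 also held Pdgfra. None of the 260 and 359 Ptprc- or Pecam1-positive barcodes without Pdgfra did, so shares above the upper limits of 1.15 and 0.836% that a count of 0 allows were found among all such barcodes. Those without Pdgfra were shallower than members, with medians of 4244 and 4593 UMIs. Whether these were doublets was not tested.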

How the results depend on the processing

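No paired analysis was possible because each condition was 1 library and no result came from a test. The share of members was highest after repetitive bleomycin in each alternative that follows. In the usual library order it was 3.00, 4.02, 3.54 and 10.4% with at least 2 rule UMIs, and 3.91, 3.89, 5.64 and 8.95% without the Pi16 gate. With at least 5 rule UMIs it was 0.750% after single-dose bleomycin, 1.17% after repetitive PBS and 3.38% after repetitive bleomycin. After thinning to 2000 UMIs it was 0.131, 0.150, 0.289 and 0.584% with 3 rule UMIs, and with 1 it was 3.13% after single-dose PBS, 2.88% after repetitive PBS and 7.95% after repetitive bleomycin, where barcodes of at least 5000 UMIs gave 8.29%. The leading cluster was chosen anew at each resolution and need not be the same one. At resolution 0.5 it held 61.5 and 62.5% of members after single-dose PBS and single-dose bleomycin. In the repetitive experiment it held 33.9% after PBS and 44.5% after bleomycin. At resolution 2 it held 33.9% after repetitive PBS. The lead of PBS over bleomycin thus did not hold at resolution 0.5, and the cause was not tested.

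The 13 higher genes became 2 with a pseudocount of 20 CPM, 7 at a mean of at least 30 CPM, 8 with ratios centred on the median gene, 33 in both repetitive libraries, 38 in members of the leading cluster, 3 without the barcode holding most UMIs, and 14 to 23 with 1 library left out. The 3 lower genes became 13 with at least 5 rule UMIs, 5 without barcodes of high mitochondrial share, 19 without barcodes over 2 times the median UMI count, 1 against Pi16-zero barcodes, 8 and 0 with pseudocounts of 1 and 20 CPM, 1 at a mean of at least 30 CPM, 8 by mean CPM per barcode, 6 in both repetitive libraries, 52 in the leading cluster, 10 without the barcode holding most UMIs, and 4 to 15 with 1 library left out. The 188 genes higher after bleomycin became 360 without barcodes over 2 times the median UMI count, 79 with a pseudocount of 20 CPM, 84 at a mean of at least 30 CPM, 116 in the leading cluster and 317 in the repetitive experiment. The 72 lower genes became 366, 29 and 135 under the first, second and last of these. Leaving out barcodes over 2 times the median kept 15 of the 265 members after repetitive bleomycin. Over 25 lists, 391 of 399 medians under alternatives stayed within the spread over libraries, and 353 kept their sign. The small single-dose sets limited what could be seen there, since 1 UMI was worth 8.26 and 4.58 CPM.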

Other observations

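The 35 Wif1-positive members after repetitive bleomycin differed in some genes from the other members of that library. The apolipoprotein Apod was at 502 CPM in them and 35.0 CPM in the rest of the members, and was found in 15 of the 35. Apod was also among the leading genes of the cluster that held more members of that library than any other, at 484 CPM against 36.1 CPM in other barcodes, and 17 of the 35 were in that cluster. The chemokine Cxcl13 was at 1041 and 1.26 CPM, but 557 of its 563 UMIs in all members of the library came from 1 barcode.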
